A study of Mus musculus with 6 samples.

Results

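Hepatic transporters of 3 gene families were examined in mouse liver during chronic alcohol intake: the ABC transporters, the organic anion transporters of the Slco family and the organic ion transporters of the Slc22 family. Members were chosen by gene name, as the array lists it (Abca to Abcg followed by a digit, Slco followed by a digit, or Slc22a). The rule found 136 probes for 81 genes, of 41174 probes and 27962 gene names on the array. Of the 81 genes, 32 are uptake carriers (15 Slco and 17 Slc22 genes), 18 are ABC genes with a known role in efflux across the cell membrane, and 31 are other ABC genes, most of them intracellular or of little known function. Each gene is represented by its brightest probe.

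The livers came from male 129/Sv mice that were 6 to 8 weeks old when the treatment began. Alcohol-treated mice had free access to a liquid diet with 4% ethanol, and control mice had a liquid diet of equal calories with maltose dextran in place of the ethanol. After 1, 2 and 4 months, liver RNA of 6 mice per group was pooled, separately for each group and month. The pools of a month were hybridized together on 2 two-color arrays, 1 with the alcohol pool in Cy5 and 1 with the dyes exchanged, so that 6 arrays were made from 6 pools. The arrays of a month are technical repeats of the same RNA, and individual mice cannot be seen in a pool. Values are log2 ratios of alcohol over control. Where both arrays are given, the array with alcohol in Cy5 comes first, and the value for a month is the mean of its pair. In whole liver RNA, fewer cells of a type and less RNA per cell cannot be told apart.

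A hepatocyte takes up bile acids, hormones, drugs and other organic ions from blood through Slco and Slc22 carriers on its basolateral side, and ABC pumps send the products out again, into bile across the canalicular membrane or back to blood. ABC half-transporters of the Abcd group bring fatty acids into peroxisomes, and those of mitochondria serve heme and iron metabolism. Many of these genes are controlled by nuclear receptors, and several, such as Slco1a1 and Slco1a4, differ between male and female mouse liver.

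The liver label was borne out by hepatocyte markers: 7 of 8 were on the array, and all 7 were detected in both pools on every array. Of the 81 transporter genes, 78 were tested, 65 of them with both pools clearly over background on every array and 13 dimmer somewhere. Abca4, Abca16 and Slco6d1 were well above background in no pool on any array. No member had a saturated spot. The 1-month arrays shared a slide, and the 2- and 4-month arrays shared another, so slide and the step from 1 month to later months cannot be told apart.

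Few transporters departed far from the control pool, and those that did belonged to different functional groups. At the 2-fold limit, Abcd2 was higher and Slco1a1 was lower in the alcohol pool at 1 and at 4 months, and no member passed at 2 months. Among all 37922 probes tested, 0.158% were at least 2-fold higher and 0.0949% at least 2-fold lower at 1 month, against 1 of 78 members (1.28%) in each direction. The shares were 0.24% and 0.195% at 2 months, against 0 members each way. At 4 months they were 0.467% and 0.338%, again against 1 member each way.

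A lower limit of 1.5-fold, with the ratio on the same side on both dye-swapped arrays, added a few more. At 1 month Abcd2, Abcg3 and Slc22a2 were higher (3 of 78 members, 0.588% of all probes), Slc22a2 with neither pool above background on those arrays, and Slco1a1 was lower (1 of 78, 0.63% of all probes). At 2 months Abcd2 and Slc22a3 were higher (2 of 78, against 1.17%) and Abcg8 was lower (1 of 78, against 1.49%). At 4 months Abcb1a, Abcc3, Abcd2, Slc22a3 and Slco1a4 were higher (5 of 78, or 6.41%, against 2.24% of all probes) and Slco1a1 was lower (1 of 78, against 1.48%). These are counts from 1 pool against 1 pool, so no p-value can be given for a month. With another background correction and dye normalization, 1, 1 and 4 members were higher past 1.5-fold at 1, 2 and 4 months. With only probes above background in both pools on every array, 1, 1 and 3 were.

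**Figure D1:**
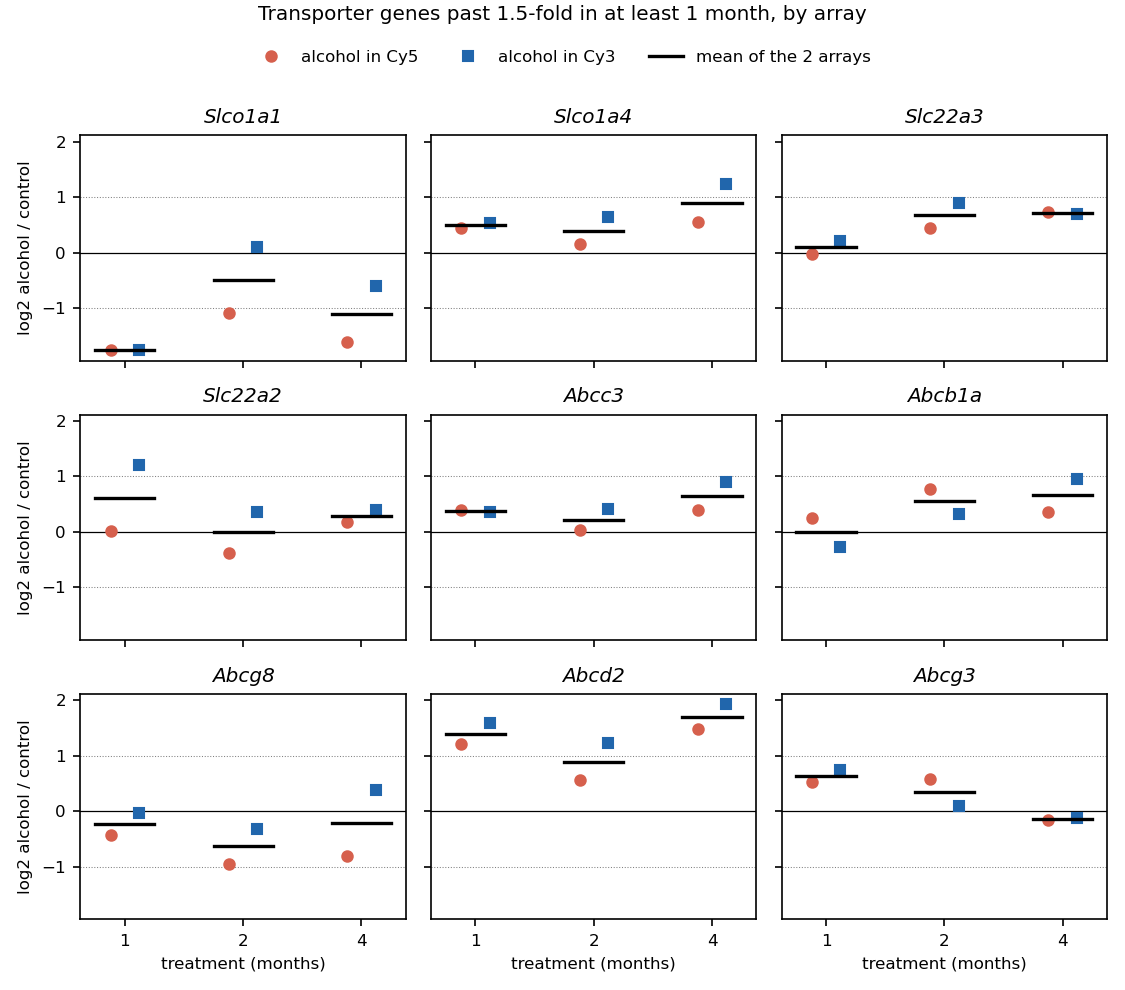
Log2 ratio of alcohol over control (vertical axis) by months of treatment (horizontal axis) for the 9 transporter genes past 1.5-fold with both arrays in at least 1 month. Circles are arrays with alcohol in Cy5, squares those with alcohol in Cy3, black bars their mean, and dotted lines mark 2-fold; Abcd2 lies above 0 on all 6 arrays, and Slco1a1 below 0 on 5 of 6.

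With the 3 months taken as replicates of alcohol, limma called 0 of 37922 probes at an adjusted p below 0.05. The smallest adjusted p was 0.121 over all probes and 0.613 among the members. At an unadjusted p below 0.05 there were 3012 probes (7.94%) and 11 of 78 members: Slco1a1, Slco1a4, Slco1b2, Slc22a3, Slc22a5, Slc22a16, Abcb1a, Abcc3, Abcg8, Abcb10 and Abcd2. For a trend with log2 time, limma called 0 probes at an adjusted p below 0.05, with a smallest adjusted p of 0.687. Unadjusted, 2701 probes (7.12%) and 4 members (Abcb1a, Abcb11 and Abcg3 among them) were below 0.05. None of the gene differences described here therefore passed a test across months, and each is given as a measured ratio.

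Slco1a1 encodes an organic anion carrier of the hepatocyte that takes up bile acids, steroid conjugates and drugs, and it is expressed mostly in male liver. Its ratios were -1.76 and -1.75 at 1 month, -1.10 and 0.11 at 2 months, then -1.61 and -0.61 at 4 months. At 1 month the processed intensity was 682 in the alcohol pool and 2310 in the control pool on one array, and 631 and 2117 on the other. The alcohol pool thus had 0.296 of the control signal at 1 month, on both arrays alike. It had 0.71 at 2 months, where the arrays fell on opposite sides of 0, and 0.463 at 4 months, where both were below 0. The mean over months was -1.12 ± 0.24 (SE, n = 3 months; limma adjusted p = 0.616). A second, somewhat dimmer probe for Slco1a1 was below 0 on all 6 arrays, at -1.66 and -1.72, then -0.55 and -0.45, then -1.09 and -1.13. The 2 probes thus gave the same direction and nearly the same size at 1 and 4 months, and the second probe did not share the array split of the first at 2 months.

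Slco1a4, a related carrier of bile acids and cardiac glycosides, was on the other side of 0 on all 6 arrays. Its ratios were 0.44 and 0.54 at 1 month, 0.16 and 0.64 at 2 months, then 0.55 and 1.24 at 4 months. The alcohol pool had 1.40, 1.32 and 1.86 times the control signal. The 4-month signal was 8844 against 6045 with alcohol in Cy5 and 7468 against 3167 with alcohol in Cy3. The array has 1 probe for this gene, and its mean over months was 0.59 ± 0.12 (SE, n = 3 months; limma adjusted p = 0.616). Slco1b2, the main carrier of bilirubin glucuronides and statins into mouse hepatocytes, was at -0.20 and -0.29, then -0.67 and 0.13, then -1.17 and 0.09. Its 2 arrays thus differed by over 2-fold at 4 months, and its means were -0.24, -0.27 and -0.54.

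Slco1a1, Slco1a4 and Slco1b2 all lie on chromosome 6. Their promoters, 250 bases before to 50 bases after the start site, are shown because these 3 hepatic carriers of one gene cluster had ratios of different direction and size. The sequences are from RefSeq (GRCm38.p6), written in the direction of the gene; Slco1a1 lies at chr6:141946913-141947212 on the minus strand, Slco1a4 at chr6:141856171-141856470 on the minus strand and Slco1b2 at chr6:141629268-141629567 on the plus strand. Capitals mark the nuclear receptor half-site AGGTCA on either strand and the STAT5-type site TTCNNNGAA.
Slco1a1: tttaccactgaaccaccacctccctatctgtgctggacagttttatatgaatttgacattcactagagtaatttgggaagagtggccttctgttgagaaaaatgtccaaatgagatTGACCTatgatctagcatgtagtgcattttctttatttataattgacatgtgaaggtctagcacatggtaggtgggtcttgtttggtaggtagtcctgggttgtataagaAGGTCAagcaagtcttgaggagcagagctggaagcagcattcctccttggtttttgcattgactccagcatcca
Slco1a4: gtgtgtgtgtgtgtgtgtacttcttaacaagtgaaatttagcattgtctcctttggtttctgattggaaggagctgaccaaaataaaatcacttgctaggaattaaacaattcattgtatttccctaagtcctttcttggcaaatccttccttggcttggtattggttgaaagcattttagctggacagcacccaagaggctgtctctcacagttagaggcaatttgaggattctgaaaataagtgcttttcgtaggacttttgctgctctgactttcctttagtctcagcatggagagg
Slco1b2: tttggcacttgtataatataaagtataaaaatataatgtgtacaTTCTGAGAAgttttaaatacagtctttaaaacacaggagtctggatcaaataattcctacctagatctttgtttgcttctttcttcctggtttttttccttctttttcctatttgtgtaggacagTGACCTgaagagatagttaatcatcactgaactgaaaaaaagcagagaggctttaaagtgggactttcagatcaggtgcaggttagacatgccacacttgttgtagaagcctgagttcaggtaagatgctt
The half-site was present at -24 and -134 from the start in Slco1a1 and at -81 in Slco1b2, and these letters were not in the Slco1a4 window. TTCNNNGAA was found at -206 in Slco1b2 and in neither of the other windows. Of 32851 promoters of the same length, 16.3% held AGGTCA and 8.30% held TTCNNNGAA on either strand. CCAAT, present in 37.4% of promoters, occurred at -188 and -89 in Slco1a4 in reverse orientation. Such matches describe letters in a window and not bound sites. In all, 64 of the 81 members had a promoter in this set.

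Slco2b1, a broad organic anion carrier, was at -0.07, -0.22 and -0.10 over the months, and Slco2a1, the prostaglandin carrier, at 0.07, -0.0039 and 0.05. Slco1a5, a neighbor of Slco1a1 with a similar sequence, was at -0.08, 0.14 and 0.05 with its brighter probe. Its second probe, at nearly the same brightness, was at -0.78 and -0.996 at 1 month, then -0.29 and -0.02, then -0.09 and 0.01. The 2 probes of Slco1a5 thus differed at 1 month, when only the second passed 1.5-fold, and which transcripts of this family each probe binds was not tested. Over the 14 Slco genes tested the medians were -0.07, -0.02 and 0.05, with 5, 6 and 8 genes above 0.

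**Figure D2:**
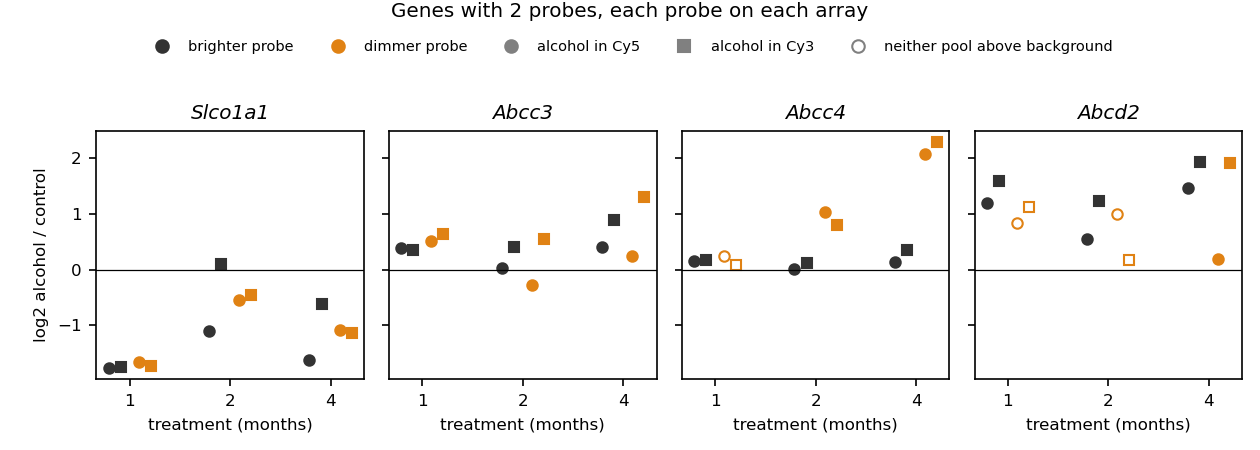
Log2 ratio of alcohol over control (vertical axis) by months of treatment (horizontal axis) for each of the 2 probes of Slco1a1, Abcc3, Abcc4 and Abcd2. Black is the brighter probe and orange the dimmer, circles have alcohol in Cy5 and squares in Cy3, and open symbols mark a month in which neither pool was above background; the Slco1a1 probes lie below 0 except the brighter one at 0.11 on the 2-month Cy3 array, and the dimmer Abcc4 probe lies above the brighter at 2 and 4 months.

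The 7 organic cation and carnitine carriers tested, Slc22a2 included, had medians of 0.11, 0.13 and 0.20 over the months, beside 0.0048, 0.0074 and -0.0099 over all probes. By array the group medians were 0.01 and 0.21 at 1 month, -0.12 and 0.36 at 2 months, then 0.18 and 0.48 at 4 months. The 2 arrays of 2 months thus lay on opposite sides of 0. Leaving out Slc22a2, which was above background only in the alcohol pool of 1 array, 6 of 6 had a mean above 0 at 1 month, 5 of 6 at 2 months and 5 of 6 at 4 months. Of all 37922 probes, 19483, 19656 and 18007 were above 0. Slc22a3, a carrier of catecholamines and other organic cations, was at -0.02 and 0.21 at 1 month, 0.44 and 0.90 at 2 months, then 0.72 and 0.69 at 4 months. The alcohol pool had 1.59 and 1.63 times the control signal at 2 and 4 months. This probe was dim, with intensities from 46.2 to 254 over all pools, and the control pool was well above background on 3 of 6 arrays against 5 of 6 for the alcohol pool. With another background correction and dye normalization (normexp and loess) its 2-month ratio was 0.41 in place of 0.67, below 1.5-fold. Its mean over months was 0.49 ± 0.14 (SE, n = 3 months; limma adjusted p = 0.616).

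Slc22a5, the carnitine carrier, was at 0.12 and 0.10, then -0.12 and 0.61, then 0.10 and 0.53, with a mean over months of 0.22 ± 0.070 (SE, n = 3 months; limma adjusted p = 0.621). Slc22a2, an organic cation carrier best known from kidney, passed 1.5-fold at 1 month on ratios of 0.01 and 1.20. Neither pool was well above background on either of those arrays, so this ratio is not a measured difference and gives no limit, and with normexp and loess it was 0.23.

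Among the organic anion carriers of the Slc22 family, Slc22a7, a hepatic carrier of organic anions and nucleotides, was at -0.31 and -0.36 at 1 month, 0.01 and 0.17 at 2 months, then -0.52 and -0.26 at 4 months. Both arrays were thus below 0 at 1 and 4 months and above it at 2 months. Slc22a8, an organic anion carrier, was at -0.11, -0.06 and -0.13. Slc22a18, which is not counted among these anion carriers, was at 0.22, -0.08 and 0.06. Over all 31 uptake genes the medians were 0.02, 0.06 and 0.05, and 21, 18 and 19 of the 31 lay within 0.2 of 0 at 1, 2 and 4 months.

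The 8 canalicular pumps, which secrete into bile, all had a mean below 0 at 1 month, with a median of -0.21, by the brightest probe of each gene. Of all probes 48.6% were below 0 in that month. The dimmer probes of Abcb1b, at 0.01 and 0.20, and of Abcg2, at 0.05, were above 0 at 1 month. At 2 and at 4 months 4 of 8 were above 0, with medians of -0.07 and 0.0051. The 1-month values were small for each gene, from -0.47 to -0.0079, and none passed 1.5-fold in that month. Abcb11, the bile salt export pump, was at -0.64 and -0.29 at 1 month, -0.56 and 0.18 at 2 months, then -0.57 and 0.73 at 4 months. Only the 1-month pair had 1 direction, at 0.724 of the control signal, and the 4-month pair spread over more than 2-fold around a mean of 0.08. Its slope per doubling of time was 0.27 ± 0.079 (SE, n = 3 months; limma adjusted p = 0.691). Abcb4, which moves phosphatidylcholine into bile, was at -0.28, 0.26 and 0.17, and Abcc2, the pump for conjugated bilirubin and glutathione conjugates, at -0.10, 0.20 and 0.05. Abcg2, a pump for sulfate conjugates and many drugs, was at -0.09, -0.16 and -0.46, the last from arrays at -0.91 and -0.01.

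Abcg5 and Abcg8 form a heterodimer that secretes cholesterol into bile. Abcg8 was at -0.43 and -0.03 at 1 month, -0.95 and -0.32 at 2 months, then -0.81 and 0.38 at 4 months. At 2 months the alcohol pool had 0.644 of the control signal, and a second Abcg8 probe was below 0 there on both arrays as well, at -0.46 and -0.31. The mean of both probes was -0.51, short of 1.5-fold. Its partner Abcg5 was at -0.26, -0.18 and -0.07, below 0 on 5 of 6 arrays as Abcg8 was. The mean over months was -0.36 ± 0.11 for Abcg8 and -0.17 ± 0.068 for Abcg5 (SE, n = 3 months; limma adjusted p = 0.616 and 0.628).

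Abcb1a and Abcb1b are the rodent drug-exporting P-glycoproteins. Abcb1a was at 0.25 and -0.26 at 1 month, 0.77 and 0.33 at 2 months, then 0.36 and 0.95 at 4 months. The alcohol pool had 1.57 times the control signal at 4 months, at intensities of 90.6 against 70.6 and 97.6 against 50.4, and with normexp and loess its ratio was 0.46, below 1.5-fold. At 2 months the control pool was well above background on neither array. Set against that pool's own single-channel level, the alcohol pool was 1.19-fold higher, which is not a lower limit. Below, a limit given as "at least" sets the single-channel level of the brighter pool against the lowest level that counts as above background. On an array where the dimmer pool's own level is higher than that, its own level is used. Single channels are open to dye bias. Abcb1b was at -0.18, 0.02 and -0.04 with its brightest probe. The dimmest of the 3 Abcb1b probes was at 0.39 and 0.83 at 4 months, past 1.5-fold, while the brightest was at -0.27 and 0.19, so the probes of Abcb1b disagreed.

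Basolateral pumps return conjugates from the hepatocyte to blood. Abcc3, which exports glucuronides and bile acids to blood, was above 0 on all 6 arrays, at 0.39 and 0.35, then 0.04 and 0.40, then 0.40 and 0.90. The alcohol pool had 1.29, 1.16 and 1.57 times the control signal. A second Abcc3 probe was at 0.51 and 0.65, then -0.28 and 0.56, then 0.24 and 1.31, above 0 on 5 of 6 arrays. The mean over months was 0.41 ± 0.10 for the brighter probe (SE, n = 3 months; limma adjusted p = 0.616).

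Abcc4, a basolateral pump for bile acids and cyclic nucleotides, gave unlike values from its 2 probes. The brighter probe, with a mean intensity of 782, was above 0 on all 6 arrays at 0.16 and 0.18, 0.02 and 0.12, and 0.14 and 0.36. The dimmer probe, with a mean intensity of 32.8, was at 0.25 and 0.09 at 1 month, 1.04 and 0.81 at 2 months, then 2.08 and 2.29 at 4 months. With that probe the control pool was well above background on 0 of 6 arrays and the alcohol pool on 4, those of 2 and 4 months. The alcohol pool was accordingly at least 1.21-fold higher at 2 months and at least 2.29-fold higher at 4 months by the dimmer probe, against 1.05-fold and 1.19-fold by the brighter. This probe was singled out after its values were seen, and whether the probes bind different transcripts of Abcc4 was not tested.

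Abcc1, a pump for glutathione conjugates, was at -0.16, 0.01 and -0.17, and Abcc6, a basolateral pump of the hepatocyte, at 0.12, -0.01 and -0.03. Abca1, which loads cholesterol onto apolipoprotein A-I, was at -0.26, -0.18 and 0.22, and Abcg1, which passes cholesterol to HDL, at 0.09 and -0.15 at 2 and 4 months, with neither pool above background at 1 month. Over all 18 efflux genes the medians were -0.09, 0.02 and 0.0071, with 12, 14 and 11 of 18 within 0.2 of 0.

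**Figure D3:**
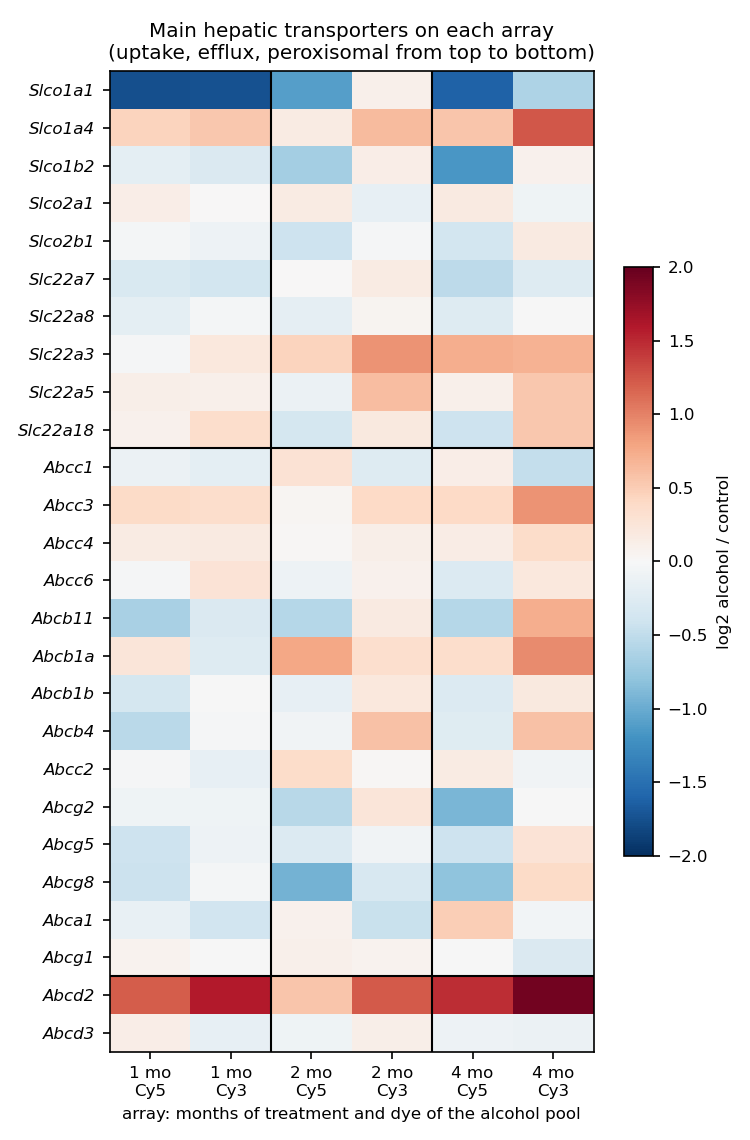
Heat map of the log2 ratio of alcohol over control for 26 main hepatic transporters (rows) on the 6 arrays (columns, with the months and the dye of the alcohol pool); red is higher and blue lower in the alcohol pool, and black lines part the months and the uptake, efflux and peroxisomal genes. Abcd2 is red and Slco1a1 mostly blue, while Abcb11 turns from blue to red between the dye-swapped arrays at 2 and 4 months.

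By the brightest probe of each gene, the highest ratio of all members in every month was that of Abcd2, a peroxisomal half-transporter of very long chain fatty acids. Abcd2 was at 1.21 and 1.58 at 1 month, 0.55 and 1.23 at 2 months, then 1.47 and 1.92 at 4 months. Its intensity was 410 in the alcohol pool against 178 in the control pool and 359 against 120 at 1 month. At 2 months it was 291 against 198 and 296 against 126, and at 4 months 1041 against 375 and 719 against 189. The alcohol pool was thus higher on every array, at 2.63, 1.85 and 3.25 times the control signal. The mean over months was 1.33 ± 0.16 (SE, n = 3 months; limma adjusted p = 0.613). A second Abcd2 probe was above 0 on all 6 arrays too, from 0.18 to 1.91. It was well above background on 1 array of 6 for the alcohol pool and on none for the control pool, and its 4-month limit was at least 1.13-fold higher in the alcohol pool.

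Abcd3, which brings branched and long chain acyl groups into the peroxisome, was at -0.01, 0.02 and -0.10. The 4 mitochondrial half-transporters had medians of 0.04, -0.10 and -0.09, and the 4 soluble members of the Abce and Abcf groups, linked to translation, had medians of 0.02, 0.08 and -0.01. Abcg3, a rodent relative of Abcg2, was at 0.52 and 0.74 at 1 month, 0.58 and 0.09 at 2 months, then -0.17 and -0.13 at 4 months. It was dim, well above background on 3 of 6 arrays for the alcohol pool and 2 of 6 for the control pool, with intensities that ranged from 295 to 30.9 between the 1-month arrays of the alcohol pool. With normexp and loess its 1-month ratio was 0.28 in place of 0.63. Over all 29 other ABC genes tested, the medians were 0.01, 0.01 and -0.06, with 22, 22 and 24 within 0.2 of 0.

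**Figure D4:**
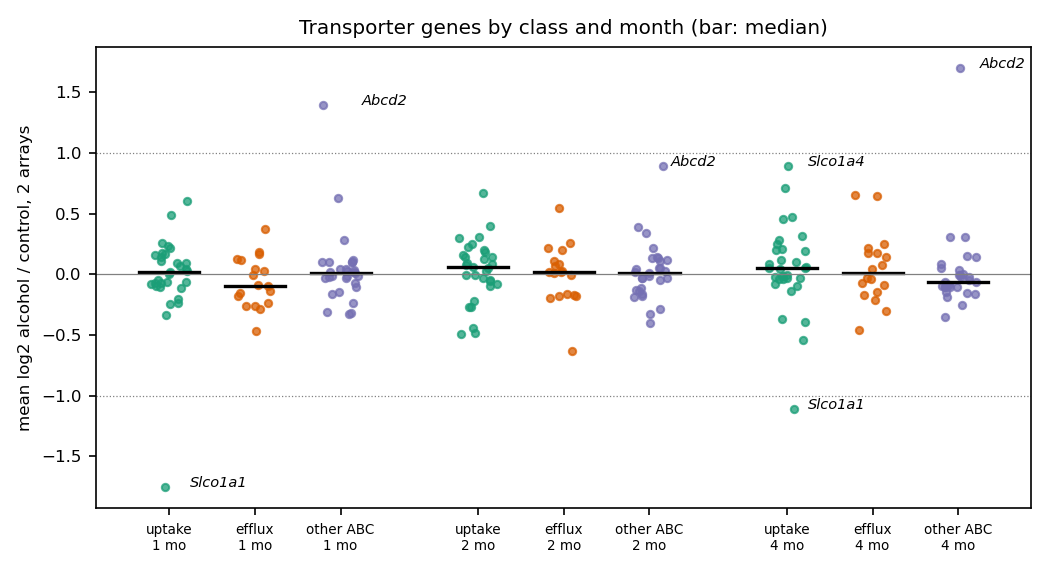
Mean log2 ratio of the 2 arrays of a month (vertical axis) for each tested transporter gene, by class and month (horizontal axis): 31 uptake, 18 efflux and 29 other ABC genes; black bars are medians and dotted lines mark 2-fold. The medians lie between -0.09 and 0.06. Abcd2 stands apart from its class in every month, and Slco1a1 from its class at 1 and 4 months but not at 2 months.

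Other probes of the members were looked at as well. Of 55 probes that were not the brightest of their gene, 49 were tested, and 8 of them passed 1.5-fold with both arrays in some month, which brings the genes with a passing probe from 9 to 14. Of all probes tested, 6.38% passed 1.5-fold in either direction in at least 1 month. That share counts single probes, so it is not a like measure for genes with any passing probe. The 8 passing probes are the second probes of Slco1a1, Slco1a5, Slc22a8, Abcc3, Abcc4 and Abcd2, and 1 further probe each of Abcb1b and Abca3. All were named after their values were seen. The Slc22a8 probe was at 0.61 and 0.60 at 2 months, while the brightest was at -0.17 and 0.06. With the dimmer probe the control pool was above background on neither 2-month array. Set against that pool's own single-channel level, the alcohol pool was 1.21-fold higher, which is not a lower limit. Abca3, a lipid transporter of lung surfactant, was at 0.75 and 0.55 at 1 month with this dimmer probe and at 0.06 and 0.18 with the brightest.

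Across members, 5 of 78 were above 0 on all 6 arrays (Abcc3, Abcc4, Abcd2, Slc22a21 and Slco1a4; 6.41%, against 1.72% of all probes) and 0 of 78 were below 0 on all 6, against 2.42% of all probes. Slc22a21, a carnitine carrier, had small values throughout, at 0.09, 0.14 and 0.10. The arrays of a pair often differed, among the members as among all probes. On the dye-swapped arrays 32, 52 and 49 of 78 members had opposite signs at 1, 2 and 4 months, against 49.4%, 62.8% and 66.7% of all probes. Slc22a17, at 0.78 and -0.87 at 4 months, and Slco1c1, at 1.27 and -0.91 at 2 months, are examples picked after their values were seen. The deviation of an array from the mean of its pair, which holds both dye and array noise, had a median size of 0.11, 0.21 and 0.25 for the members, beside 0.11, 0.14 and 0.11 for the median size of the ratio itself. Over all probes this deviation was 0.096, 0.19 and 0.22 and the ratio 0.097, 0.11 and 0.11.

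**Figure D5:**
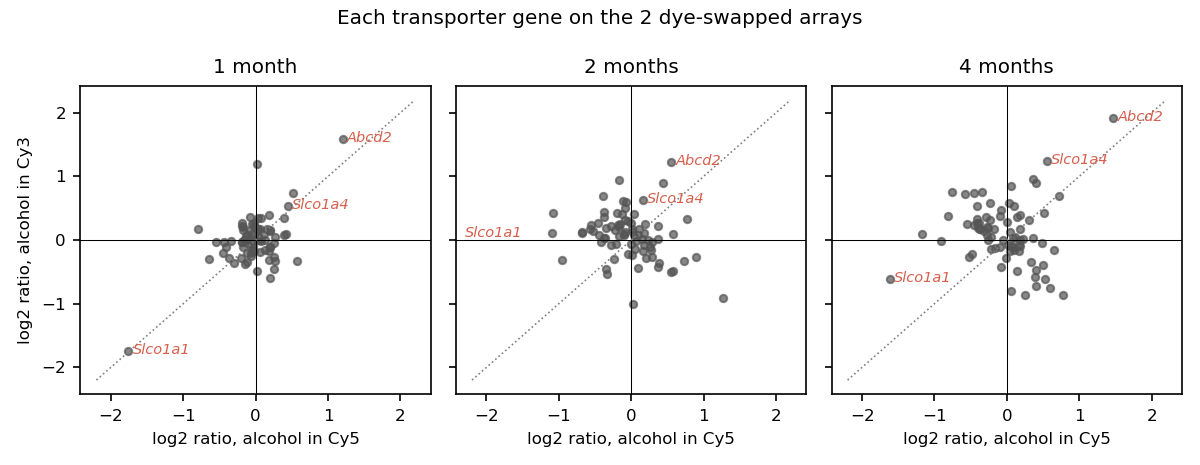
Log2 ratio of alcohol over control with alcohol in Cy5 (horizontal axis) against that with alcohol in Cy3 (vertical axis) for the 78 tested transporter genes, 1 panel a month; the dotted line marks equal values on both arrays. Abcd2 and Slco1a4 stay in the upper right, while 52 and 49 of 78 genes lie in the upper left or lower right at 2 and 4 months.

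Regulators and other transporters on lists of liver genes were read in the same way. Of 28 other liver transporters on the array, Aqp8, a canalicular water channel, was past 1.5-fold lower in all 3 months at -0.68, -0.86 and -0.92. Slc10a2, the sodium-dependent bile acid carrier of cholangiocytes and ileum, was lower at 4 months at -0.76, and Npc1l1, a cholesterol carrier, was lower at 2 months on arrays at -0.08 and -1.43, where the alcohol pool was well above background on only 1 of the 2. The hepatocyte bile acid carrier Slc10a1 was at -0.30, -0.20 and 0.02. None of the 28 was past 1.5-fold higher in any month. Of 22 regulators, Bcl6, a male-predominant repressor, was lower at 1 month at -1.21 and was at -0.22 and 0.03 later. Cux2, a female-predominant factor, was at -0.13, 0.31 and 0.75, past 1.5-fold at 4 months, when Foxa2 at -1.01 and Nfe2l2 at -0.62 were past it on the lower side. The remaining regulators did not pass it. The xenobiotic receptors Nr1i2 and Nr1i3 and the bile acid receptor Nr1h4 were between -0.17 and 0.29 in all months.

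Markers of other cells differed between the pools in some months, and their part in the transporter ratios was not tested. At 1 month, when the canalicular pumps lay below 0 and Slco1a1 was lowest, 2 of 3 erythroid markers passed 1.5-fold higher, Hba-a1 at 1.51 and Hbb-b1 at 1.97. Summed erythroid intensity was 84219 to 102579 in the alcohol pool and 23924 to 36789 in the control pool. In that month 1 of 6 macrophage markers (Adgre1, 1.23) and 2 of 5 endothelial markers (Lyve1, 0.95; Cdh5, 0.59) were also past 1.5-fold higher. At 4 months 3 of 7 pancreatic acinar markers passed 1.5-fold higher (Pnlip 0.74, Cpa1 0.81, Prss2 0.66), with sums of 47653 to 62242 in the alcohol pool and 39172 to 46330 in the control pool. Alas2, an erythroid enzyme of heme synthesis, was at -2.28 and -1.73 in that month and at -1.05 and -0.46 at 2 months, while Hba-a1 and Hbb-b1 were at 0.61 and 0.63 at 4 months. The stellate marker Reln was at -0.67 and the hepatocyte marker Alb at 0.59 at 4 months, and the macrophage marker Marco was at 0.61 at 2 months. The kidney marker Cubn, dim throughout, was at 1.15 at 4 months. No cholangiocyte marker of 6 passed 1.5-fold in any month.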

How the data were processed

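RNA was extracted from each liver and then pooled, and the authors computed signals and ratios with Agilent Feature Extraction 9.1.1.1. The authors deposited, per spot, intensities of both channels (mean, local background, and processed signals after background subtraction and dye normalization), the log10 ratio of Cy5 over Cy3, and flags for background and saturation. They also deposited a table of log10 ratios of the same arrays, used as an alternative.

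From the deposited processed intensities, the log2 ratio of alcohol over control was computed per spot, turned by the dyes in the labels, averaged over spots of a probe and over the pair. A probe was tested when either channel of any array flagged it as well above background (37922 probes). No p-value was computed within a month, since each has 1 pool per group. The effect against 0 and the slope on log2 month were fitted with limma 3.58.1 in R 4.3.3 over 3 months, which leaves 2 and 1 residual degrees of freedom before moderation, with Benjamini-Hochberg adjustment over all probes. Months differ in duration as well as in mice, so their spread is not that of repeats at 1 time. The fits were first tested on simulated data. Tables were made with pandas 2.3.3 and numpy 2.4.6 under Python 3.11.15, and plots with matplotlib 3.10.9.

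The members, gene lists and tests were chosen with earlier results of these data known. Named genes are the 28 main hepatic transporters of a list, 2 of which are not reported here, every member past 2-fold, or past 1.5-fold with both arrays on that side, in any month, and members whose probes disagree in sign in a month passed by the brightest probe (there were none). Of the 136 probes, 109 matched the RefSeq table of GRCm38.p6 (73 genes); gene names are those of the array, and no coordinates were taken from it for probes. Array precision is limited by the 6 arrays. Alternatives were the deposited log ratios, normexp (offset 50) with loess, each array alone, other filters, the mean over probes, median centring, a 3-fold limit, leaving out each month, a slide term, no moderation, another time scale and, added after seeing the data, a call by any probe of the gene.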

Additional observations from a re-analysis of the deposited data

Results flagged for a closer look

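Among the main hepatic transporters and the genes past 1.5-fold that are reported here, 4 had this pattern: both arrays of one month lay on one side of 0 and both arrays of another month on the other. Other members were left out of this screen, and some of them, such as Slco4a1, show it too. These differences between months were not tested as such. Abcg3 was lower at 4 months than at 1 month by -0.78 on the log2 scale, at a dim probe (slope by limma, adjusted p = 0.687). In those months each pool was above background on only 1 of 2 arrays. From 2 to 4 months Abcg3 differed by -0.48. At 2 months its control pool was above background on neither array, so this value is not a measured difference. Slc22a7 was higher at 2 months than at 1 month by 0.42 and lower at 4 months than at 2 months, by -0.48. Abcc2 differed by 0.30 from 1 to 2 months, and Abcg1 by -0.24 from 2 to 4 months. Both rest in part on arrays close to 0. Abcc2 was at -0.03 at 1 month (alcohol in Cy5) and 0.02 at 2 months (alcohol in Cy3). Abcg1 was at -0.01 at 4 months (alcohol in Cy5), and it was dim, with 4-month intensities from 40.7 to 81.0. The 1-month arrays were on another slide than the later ones, so for the steps from 1 month slide and time cannot be told apart.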

How the results depend on the processing

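Of the values recomputed for counts, tests and class medians, 201 stayed within the spread of the pair or 1.5 times the count and 31 moved; of those for single genes 850 stayed and 26 moved. No ratio past a fold limit changed sign, but ratios short of it did on 1 array alone, such as Slco1a1 at 2 months (0.11, Cy3), Abcg8 at 4 months (0.38, Cy3) and Abcb1a at 1 month (0.25, Cy5). limma called 0 members under every alternative run, with each month left out and a slide term run for the effect only, while over all probes it called 9 (effect) and 50 (slope) with normexp and loess, 6 effects with probes above background everywhere, and 1 slope without moderation. Members at least 1.5-fold higher numbered 1 at 1 month and 1 at 2 months with normexp or with probes above background everywhere, and 3 at 4 months with the latter. The mean over probes left 0 lower at 2 months, gave 2 at least 2-fold higher at 4 months and gave 2 lower on all 6 arrays. A call by any probe, chosen after seeing the data, gave 2 lower at 1 month and 4 higher at 2 months past 1.5-fold, and 2 past 2-fold higher at 4 months. Cy5 arrays alone gave 2 lower at 2 months, 2 lower at 4 months and 1 higher at 2 months past 2-fold; Cy3 arrays alone gave 0 lower at 4 months, 2 higher at 1 month, 1 at 2 months and 2 at 4 months. At a 3-fold limit 0 were lower at 4 months and 0 higher at 1 month. The efflux median at 1 month was -0.058 and -0.044 on the Cy3 and Cy5 arrays, -0.011 with the mean over probes, -0.071 with normexp and -0.13 with probes above background everywhere; at 4 months it was 0.20 on the Cy3 array, and the uptake median at 2 months was 0.031 with the mean over probes. The cause was not tested. Each ratio already pairs both pools of a month on 1 array. No further paired analysis was possible because the labels give no shared replicate numbers. Dim probes limit Slc22a3, Abcb1a, Abcg1, Abcg3 and Slc22a2.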

Other observations

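Genes now named as Slc22 members but listed on the array under older names, 7 probes for 5 genes, fell outside the name rule. Slc22a30 was below 0 on all 6 arrays with both its probes, at -0.22, -0.43 and -0.38 with the brighter one. Slc22a26 was at 0.20, -0.12 and 0.61. Slc22a29 was at 0.24, -1.41 and 0.64, but at 2 months neither pool was well above background. Slc22a22 was dim throughout, and the brighter Slc22a23 probe was at 0.06, 0.08 and -0.13.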
